A study of Mus musculus with 8 samples.

Results

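The 36 genes described here carry glucose into the cell, break it down to pyruvate and lactate, or set the pace of that pathway. They are the rows of the count table whose gene symbol is on a fixed list of transporters, glycolytic enzymes, pyruvate dehydrogenase genes and the transcription factors *Hif1a* and *Myc*, and each symbol is represented by its identifier with the highest total count. The table holds 42748 genes, 15063 of them passed the filter on low counts, and all 36 members were among these. The cells were CD4+ CD25+ cells, the fraction of T cells rich in regulatory T (Treg) cells, pooled over spleen and lymph nodes of chimeric female *Ripk1* fl/fl *Foxp3* Cre/wt mice. In these animals a Cre recombinase with a yellow fluorescent protein (YFP) sits in the X-linked *Foxp3* locus, and random X inactivation leaves Treg cells of both kinds side by side. Sorting gave YFP- cells, labelled Ripk1+/+, which carry the floxed alleles but do not express Cre, and YFP+ cells, labelled Ripk1 -/-. Bulk RNA was sequenced from 4 libraries of each fraction, numbered 21, 46, 48 and 53. No ages and no treatment are given in the labels. The YFP/Cre knock-in and the loss of *Ripk1* occur in the same fraction and cannot be told apart here. The labels do not say whether the 4 libraries of a fraction stem from different animals. The p-values therefore refer to the spread between these libraries, which may be technical.

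Glucose enters T cells through facilitative GLUT transporters, is trapped by hexokinase and is split and oxidised to pyruvate in the cytosol. Pyruvate is then either reduced to lactate and exported, or passed to the mitochondria through the pyruvate dehydrogenase (PDH) complex, which PDH kinases switch off. Activated T cells raise this pathway through Myc and HIF-1α, while Treg cells are known to rely more on oxidative metabolism, and Foxp3 is known to restrain Myc and glycolysis.

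Total counts were 29719251 to 70782679 per library. Levels are given as CPM, counts scaled to a common library size that includes the TMM factor, which equalises the bulk of genes between libraries. The ± after a log2 fold change is its standard error. A count of 3 corresponded to 0.0374 to 0.142 CPM, which covers counting error only. The YFP+ library 21 stood apart, with a TMM factor of 0.71, 9571 genes with at least 10 counts against 13047 to 16558 in the other 7 libraries, and a correlation of at most 0.652 with any of them. Counts of genes called and the plotted fold changes are therefore given with and without it, and other fold changes where stated. Whole-gene *Ripk1* counts were 20.5, 44.3, 29.5 and 23.2 CPM in the YFP- libraries 21, 46, 48 and 53 against 15.2, 28.7, 19.9 and 26.1 CPM in the YFP+ libraries (log2 fold change -0.38, adjusted p = 0.713 from edgeR), and a whole-gene count does not show whether a floxed part is missing. Of 10 T and Treg cell markers, *Foxp3* alone is listed at 0 in all 8 libraries, and the summed level of the list was 5355 to 5745 CPM in YFP- libraries, with 4592 to 7057 CPM in the YFP+ ones. Markers of some other cells were higher in all YFP+ libraries. The sum of 11 macrophage and monocyte markers was 14.6 to 26.2 CPM in YFP- libraries against 67.1, 105, 596 and 70.6 CPM in YFP+ cells (libraries 21, 46, 48 and 53), and that of 7 CD8 T and NK cell markers was 62.9 to 80.1 CPM against 98.5, 81.3, 222 and 103 CPM, so neither sum overlapped between the fractions. The YFP+ library 48 was the highest for both, and it alone stood out for the sum of 12 B cell markers, at 4921 CPM against 1014 to 2045 CPM in the other 7 libraries. It also stood out alone for 8 erythroid markers, at 5091 CPM against 92.3 to 359 CPM, and for 8 neutrophil markers, at 87.7 CPM against 0.206 to 7.83 CPM. Still, 3 of the 12 B cell markers lay above every YFP- library in all YFP+ libraries, beside 7.83% of all genes tested. With all 8 libraries, edgeR called 1 T and Treg cell marker lower and no other listed marker, beside 0.0332% of all genes called higher and 0.836% lower. Without the YFP+ library 21, edgeR called 3 B cell markers, 2 macrophage and monocyte markers and 1 marker of stroma and endothelium higher, and 1 T and Treg cell marker lower. Of all genes, 2.68% were called higher and 3.97% lower in that fit. Of these lists, *Ms4a1*, *Alas2* and *Mpo* are at 0 in every library. The part of these cells in the results below was not tested, and counts are also given without libraries 21 and 48.

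In the YFP+ libraries 46, 48 and 53, 4 genes of the lower part of the pathway lay above every YFP- library. They were *Eno1* and *Eno3*, which encode enolases, *Ldha*, which encodes a lactate dehydrogenase subunit, and *Pgk1*, which encodes phosphoglycerate kinase. These are 4 of 36 members, while 12.5% of all 15832 genes tested lay above every YFP- library in the same 3 libraries, so the count was not above the background. In the YFP+ library 21, *Pgk1* and *Eno3* were high too, while *Eno1* and *Ldha* were low and 23 of the 36 members lay below every other library. In bulk RNA, more cells of a kind and more RNA per cell cannot be told apart.

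No member passed an adjusted p of 0.05 in edgeR's quasi-likelihood test of 4 against 4 libraries. Of all 15063 genes tested, 0.0332% were called higher and 0.836% lower in YFP+ cells. The smallest adjusted p among the members was 0.161, 2 members had an unadjusted p under 0.05, and 14 log2 fold changes were above and 22 below 0. The median over the members was -0.17, beside -0.02 over all genes tested. DESeq2 on the same genes called 1 member, *Eno3*, as higher and 0 as lower, where it called 3.57% of all genes higher and 4.04% lower. Without the YFP+ library 21, edgeR called 3 of 36 members higher, *Eno1*, *Eno3* and *Ldha*, and 0 lower, with 6 at an unadjusted p under 0.05, against 2.68% and 3.97% of 15832 genes, and the median over the members was 0.07. Without the YFP+ libraries 21 and 48 it called the same 3 genes higher and *Slc2a6* and *Pfkfb2* lower, against 1.43% and 4.28% of 16458 genes, with a median of -0.02.

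The libraries of the 2 fractions did not overlap for 2 members, *Pgk1* and *Eno3*, both higher in YFP+ cells, and for 0 members in the other direction, while 7.83% of all genes lay wholly higher and 10.6% wholly lower in YFP+ libraries. Without the YFP+ library 21, 4 members lay wholly higher, *Pgk1*, *Eno1*, *Eno3* and *Ldha*, and 0 lower, against 12.5% and 13.7% of all genes. The share of the members that lay wholly higher was below that of all genes with all libraries and without library 21. In library 21 itself, 10 of the 28 members with at least 10 CPM in YFP- cells, or 35.7%, were more than 10-fold under the YFP- mean, and so were 33.1% of all 8743 such genes. The heat map of the 36 genes shows how strongly that library differed.

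**Figure D1:**
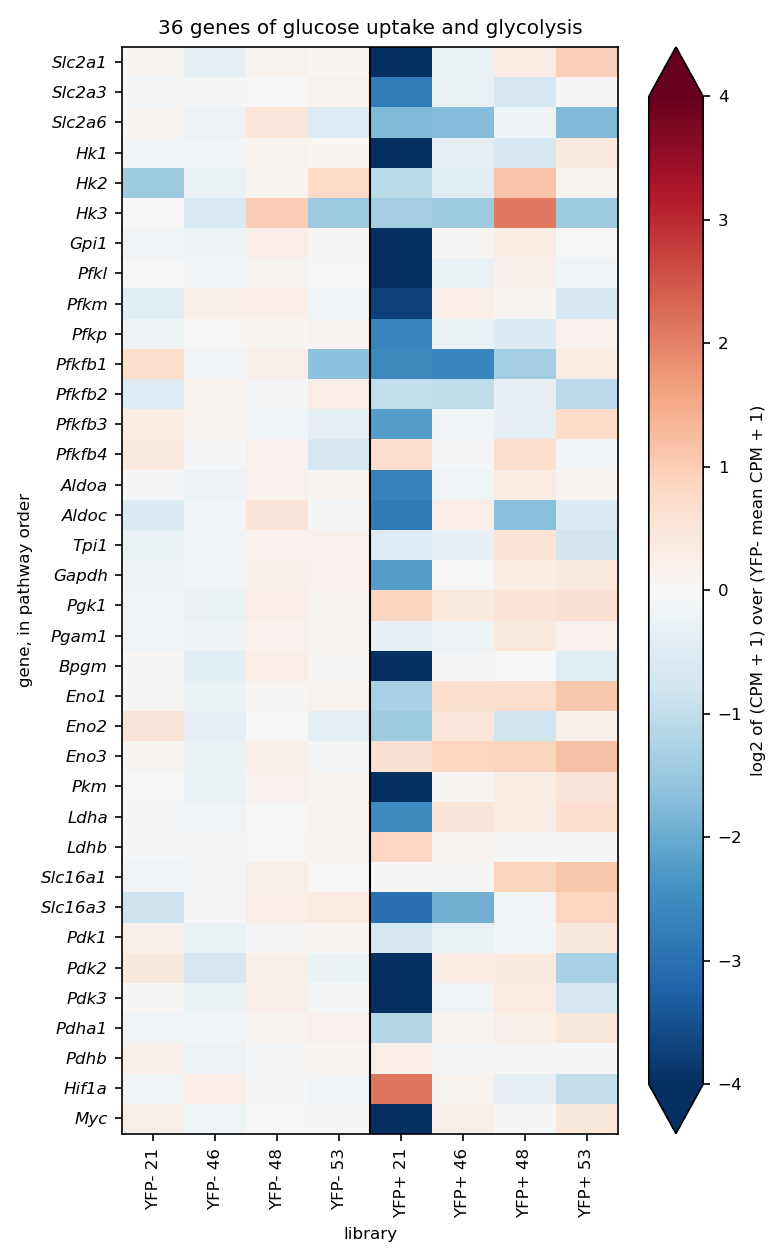
Log2 of (CPM + 1) over the mean of the 4 YFP- libraries + 1, for 36 genes (rows, in pathway order) in 8 libraries (columns); colours are capped at 4 in each direction. In the YFP+ column 21, 23 genes lay below every other library and *Pgk1*, *Ldhb*, *Pdhb* and *Hif1a* above every other library.

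Enolase turns phosphoglycerate into phosphoenolpyruvate. *Eno1*, the gene of the widely expressed enolase (GRCm38 chromosome 4, 150236721 to 150248879, plus strand), had the highest level per kilobase of exon of all members, 247 CPM per kb in YFP- cells. In libraries 21, 46, 48 and 53 it measured 1361, 1116, 1369 and 1478 CPM in YFP- against 544, 2091, 2179 and 2787 CPM in YFP+ cells, and values of the other members are given in the same order. The YFP+ libraries 46, 48 and 53 lay above every YFP- library, and library 21 lay below all of them. The log2 ratio of the groups was 0.51 ± 0.43 (edgeR, adjusted p = 0.642), and without library 21 *Eno1* rose by 0.82 ± 0.13 in log2 (edgeR, adjusted p = 0.0219), 1.77-fold between the means. Of the 50-base windows of its transcripts, 26.0% also occur in other genes, chiefly its near-identical copy *Eno1b*. Counts of *Eno1b* were 48.4 to 50.7% of those of *Eno1* in every library, so the counting may split reads between these genes, and their separate levels are uncertain.

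*Eno3*, the muscle-type enolase gene (chromosome 11, 70657202 to 70662513, plus strand), shares 0% of such windows with other genes. It measured 53.1, 41.2, 57.7 and 46.7 CPM in YFP- against 77.0, 91.8, 92.5 and 114 CPM in YFP+ libraries. Every YFP+ library, library 21 included, lay above every YFP- library, as for 7.83% of all genes tested. Such a separation alone fixes the p of a two-sided exact permutation test on log2(CPM + 1) at 0.0286, the smallest that 4 against 4 allow. The test therefore adds nothing to the separation. Its log2 difference came to 0.92 ± 0.23 (edgeR, adjusted p = 0.161), with an adjusted p of 0.000129 from DESeq2. Without library 21 *Eno3* rose by 1.0 ± 0.15 in log2 (edgeR, adjusted p = 0.0187). With library totals in place of TMM-scaled sizes, the libraries of *Eno3* overlapped. *Eno2*, the neuronal-type enolase gene, was at 0.0948 to 3.22 CPM. Per kilobase of exon, *Eno1* made up 88.3 to 91.0% of the enolase family in YFP- libraries and 87.9 to 88.7% in the YFP+ libraries 46, 48 and 53, but 69.5% in library 21, where *Eno3* made up 30.4%.

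*Ldha* encodes the muscle-type subunit of lactate dehydrogenase, which favours the reduction of pyruvate to lactate, and lies on chromosome 7 from 46841475 to 46855627 (plus strand). It measured 624, 603, 651 and 707 CPM in YFP- against 112, 932, 818 and 1035 CPM in YFP+ libraries. As for *Eno1*, the YFP+ libraries 46, 48 and 53 lay above every YFP- library and library 21 below. The fitted difference was 0.16 ± 0.55 (edgeR, adjusted p = 0.928), and without library 21 *Ldha* rose by 0.52 ± 0.11 in log2 (edgeR, adjusted p = 0.0373), 1.44-fold between the means. Of the windows of *Ldha*, 9.26% occur in other genes, 328 of them, so its level is uncertain to that extent. *Ldhb*, the heart-type subunit that favours the opposite reaction, was chosen for mention after its values were seen. It measured 108, 105, 113 and 118 CPM in YFP- against 196, 119, 104 and 105 CPM in YFP+ libraries, so library 21 alone stood out. Of its windows, 21.0% occur in 1 other gene, *Gm5514*, so its level is uncertain. Its log2 fold change without that library was -0.02 ± 0.10 (edgeR, adjusted p = 0.914). The share of *Ldha* in the sum of both genes per kilobase was 73.5% ± 0.357 (SD, n = 4) in YFP- cells, with a range of 73.2 to 74.0%. It was 78.8, 78.9 and 82.3% in the YFP+ libraries 46, 48 and 53 and 21.3% in library 21, so the YFP+ libraries lay outside the YFP- range in both directions.

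*Pgk1*, phosphoglycerate kinase, catalyses the first step of the pathway that yields ATP and is X-linked (chromosome X, 106187100 to 106203699, plus strand). It measured 110, 98.7, 144 and 131 CPM in YFP- against 225, 158, 177 and 186 CPM in YFP+ libraries. All 4 YFP+ libraries lay above all 4 YFP- libraries, which alone fixes the p of the two-sided exact permutation test at 0.0286. With library totals in place of TMM-scaled sizes the YFP+ libraries lay above the YFP- ones only barely. *Pgk1* had 4738 of 29719251 counts in the YFP+ library 21 and 6966 of 43737313 in the YFP- library 48, nearly the same share. The log2 ratio of the groups was 0.62 ± 0.20 (edgeR, adjusted p = 0.283) and 0.51 without library 21 (adjusted p = 0.0827). Of its transcript windows, 53.9% occur in other genes, and counts of the copy *Pgk1-rs7* were 68.7 to 72.4% of those of *Pgk1*, so its level is uncertain in the same way as that of *Eno1*. The permutation test was run for each of the 36 members without adjustment. *Pgk1* and *Eno3* alone reached its smallest p, being the members whose libraries do not overlap.

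The plot of 16 genes by library shows these levels side by side.

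**Figure D2:**
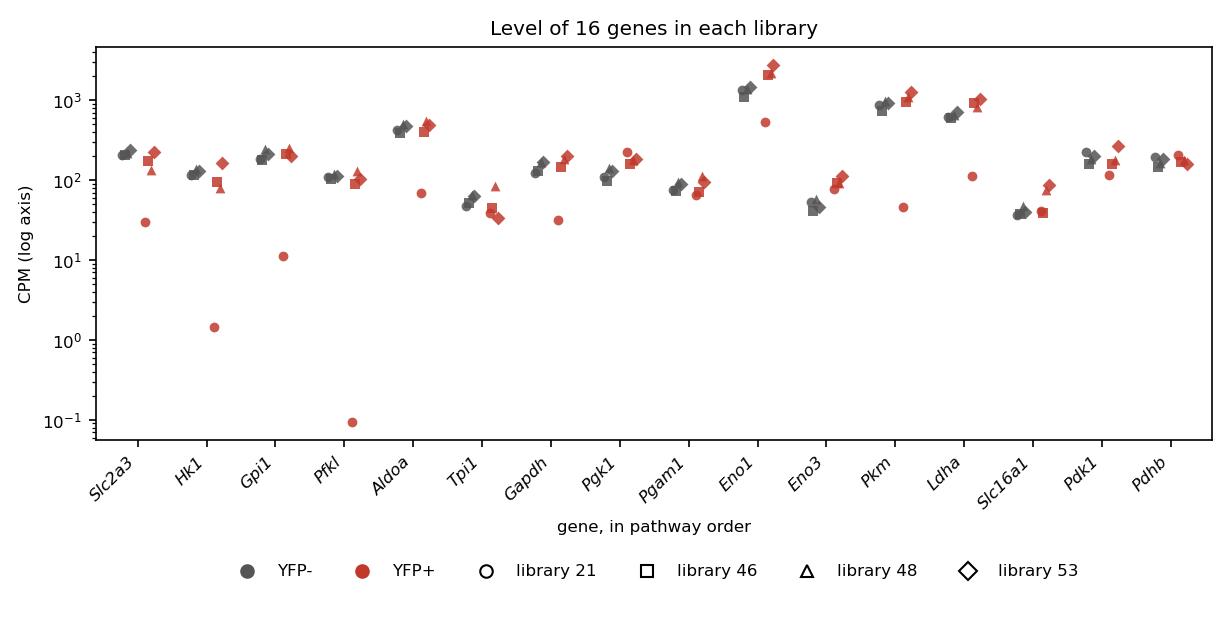
CPM on a log axis of 16 genes in pathway order; each point is 1 library, grey for YFP- and red for YFP+, with a marker shape for each library number. The red circle of the YFP+ library 21 lies at 0.0948 CPM for *Pfkl*, where the YFP- libraries lie between 104 and 120 CPM. It lies above every grey point for *Pgk1* and *Eno3*, and the other red points of *Eno1*, *Eno3*, *Ldha* and *Pgk1* lie above the grey ones.

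The stretches before the start sites of these 4 genes are shown because the members that lay above the YFP- libraries in the YFP+ libraries 46, 48 and 53 can be compared there for motifs of the factors Myc and HIF-1α. The sequences are from RefSeq on GRCm38.p6 and cover the 250 bases before the start, 5′ to 3′ along the gene. Capitals mark the E-box CACGTG, bound by Myc, and the HIF core ACGTG, searched on both strands. Every CACGTG also holds an ACGTG. Promoters were matched by symbol for 34 of the 36 members, all but *Slc2a3* and *Myc*.

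Ldha (chr7:46845554-46845803, + strand): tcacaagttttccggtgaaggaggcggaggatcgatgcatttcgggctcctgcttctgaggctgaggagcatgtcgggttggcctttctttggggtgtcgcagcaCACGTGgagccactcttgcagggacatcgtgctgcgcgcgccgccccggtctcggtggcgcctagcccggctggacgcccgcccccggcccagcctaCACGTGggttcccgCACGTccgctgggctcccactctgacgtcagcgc
Pgk1 (chrX:106186850-106187099, + strand): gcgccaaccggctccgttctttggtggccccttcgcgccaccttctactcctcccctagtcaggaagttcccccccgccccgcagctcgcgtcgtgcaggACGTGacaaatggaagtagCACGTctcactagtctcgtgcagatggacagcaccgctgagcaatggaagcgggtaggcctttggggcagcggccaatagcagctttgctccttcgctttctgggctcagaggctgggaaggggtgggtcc
Eno1 (chr4:150236458-150236707, + strand): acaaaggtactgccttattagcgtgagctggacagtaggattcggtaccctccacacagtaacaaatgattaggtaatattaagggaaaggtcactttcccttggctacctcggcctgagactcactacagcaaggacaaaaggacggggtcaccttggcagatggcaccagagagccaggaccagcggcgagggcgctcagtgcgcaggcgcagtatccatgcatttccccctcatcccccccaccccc
Eno3 (chr11:70656926-70657175, + strand): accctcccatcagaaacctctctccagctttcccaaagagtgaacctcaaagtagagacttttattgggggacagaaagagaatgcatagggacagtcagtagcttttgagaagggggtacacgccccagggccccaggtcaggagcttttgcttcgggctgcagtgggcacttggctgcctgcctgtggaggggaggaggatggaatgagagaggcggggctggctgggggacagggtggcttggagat

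The *Ldha* stretch held CACGTG at -145 and -48 from the start and a further HIF core at -34, and the *Pgk1* stretch held HIF cores at -150 and -131 and no E-box. Neither motif was in the *Eno1* or *Eno3* stretch. Over the 34 members, the first listed promoter held an E-box in 6 (17.6%) and a HIF core in 15 (44.1%), while of the 27025 promoters listed by RefSeq, 6.05% and 16.6% did. A match is a description of the letters, not of binding.

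At the head of the pathway, *Slc2a3*, the gene of the high-affinity transporter GLUT3, had the highest level per kilobase among the glucose transporters, 30.0 CPM per kb in YFP- cells. It measured 205, 206, 220 and 239 CPM in YFP- against 30.3, 176, 134 and 224 CPM in YFP+ libraries. The YFP+ libraries 21, 46 and 48 lay below every YFP- library, and library 53 fell within their range. Its log2 difference came to -0.62 ± 0.51 (edgeR, adjusted p = 0.636) and -0.29 without library 21 (adjusted p = 0.346). *Slc2a1*, the GLUT1 gene that T cells raise on activation, was chosen for mention after its values were seen. It measured 22.8, 16.4, 24.1 and 23.1 CPM in YFP- against 0.0948, 17.5, 27.2 and 42.4 CPM in YFP+ libraries, at 0.01 ± 1.12 on the log2 scale (edgeR, adjusted p = 0.997). Without library 21 its log2 fold change was 0.42 (edgeR, adjusted p = 0.451). Its share of the 3 transporter genes per kilobase was 13.9 to 18.3% in YFP- cells, and 0.643, 17.0, 28.8 and 28.1% in the YFP+ libraries 21, 46, 48 and 53. *Slc2a6*, the gene of the lysosomal transporter GLUT6, was at 1.41 to 3.78 CPM in YFP- libraries and at 0, 0.0223, 1.96 and 0 CPM in the YFP+ libraries 21, 46, 48 and 53. It did not pass the test of all libraries (adjusted p = 0.600 from edgeR), and it fell without the YFP+ libraries 21 and 48 (adjusted p = 0.0253) or without 48 alone (adjusted p = 0.0435, where 0.0456% of all genes were called higher and 1.49% lower). The YFP+ libraries 21, 46 and 53 had 0, 1 and 0 counts of *Slc2a6*, so these falls rest on values at the floor. Library 48, the only YFP+ library with *Slc2a6* within the YFP- range, is also the one where the summed B cell, macrophage and erythroid markers were highest. The part of these cells in the *Slc2a6* counts was not tested.

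Hexokinase traps glucose as glucose-6-phosphate. *Hk1*, its housekeeping gene, measured 117, 116, 137 and 132 CPM in YFP- against 1.47, 95.3, 80.7 and 166 CPM in YFP+ libraries. The YFP+ libraries lay on both sides of the YFP- range. The fitted difference was -0.55 ± 0.94 (edgeR, adjusted p = 0.848) and -0.15 without library 21 (adjusted p = 0.756). *Hk2*, the inducible hexokinase, and *Hk3* were low, at 0.609 to 8.47 CPM and 0 to 10.7 CPM. Both were highest in the YFP+ library 48. *Gpi1*, which converts glucose-6-phosphate to fructose-6-phosphate, measured 187, 178, 248 and 212 CPM in YFP- against 11.3, 214, 255 and 204 CPM in YFP+ libraries, at -0.27 ± 0.72 on the log2 scale (edgeR, adjusted p = 0.907). Apart from library 21 its groups overlapped, with a log2 fold change of 0.12 (edgeR, adjusted p = 0.671).

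Phosphofructokinase commits the sugar to glycolysis. *Pfkl*, the liver-type gene and the leading one per kilobase, measured 111, 104, 120 and 112 CPM in YFP- against 0.0948, 91.0, 129 and 103 CPM in YFP+ libraries, the lowest value being 2 counts in library 21. Its log2 fold change was -0.47 ± 1.19 (edgeR, adjusted p = 0.901) and -0.06 without that library (adjusted p = 0.820). *Pfkp*, the platelet-type gene, kept 22 CPM in library 21 against 123 to 156 CPM in YFP- cells. It made up 32.1 to 36.5% of the 3 genes per kilobase in YFP- libraries and 98.3% in library 21. *Pfkm*, the muscle-type gene, was at 9.34 to 15.7 CPM in YFP- cells and made up 0.850% there in library 21.

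The bifunctional PFKFB enzymes make and remove fructose-2,6-bisphosphate, the activator of phosphofructokinase. *Pfkfb3*, the most kinase-active of them and the highest per kilobase, measured 52.4, 47.5, 37.4 and 33.4 CPM in YFP- against 8.44, 38.6, 32.8 and 72.2 CPM in YFP+ libraries. Both the lowest and the highest value were from YFP+ cells. The log2 ratio of the groups was -0.17 ± 0.57 (edgeR, adjusted p = 0.930) and 0.16 without library 21 (adjusted p = 0.797). *Pfkfb1* spanned 0.995 to 9.12 CPM in YFP- cells, with 0.0223 to 6.67 CPM in YFP+ ones. *Pfkfb4* was not low in library 21, where it had 20.7 CPM against 7.49 to 16.6 CPM in YFP- cells. *Pfkfb2* was low, with 0.463 to 1.52 CPM in YFP- libraries and 0.0474, 0.0223, 0.654 and 0 CPM in the YFP+ libraries 21, 46, 48 and 53. It fell without libraries 21 and 48 (adjusted p = 0.0386 from edgeR) and had an adjusted p of 0.452 with all libraries. Of its exons, 7.8% are free of the spans of other genes and 80.5% are free of their exons, so its counts may hold reads of these.

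From aldolase to *Gapdh* the groups overlapped. *Aldoa*, the main aldolase, splits the hexose bisphosphate. It measured 430, 387, 511 and 476 CPM in YFP- against 68.7, 400, 553 and 488 CPM in YFP+ libraries, at -0.26 ± 0.53 on the log2 scale (edgeR, adjusted p = 0.876). Without library 21 its log2 fold change was 0.09 (edgeR, adjusted p = 0.755). Of the exons of *Aldoa*, 49.4% are free of the spans of other genes and 99.1% are free of the exons of other genes. For *Slc2a1* these shares were 38.7% and 97.0%. *Aldoc*, the brain-type aldolase, was at 0.190 to 11.1 CPM over all libraries. *Tpi1*, which interconverts the triose phosphates, measured 47.2, 51.5, 64.5 and 63.8 CPM in YFP- against 39.1, 45.4, 83.6 and 34.0 CPM in YFP+ libraries, where library 21 was not the lowest (edgeR log2 fold change -0.17 ± 0.35, adjusted p = 0.876).

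*Gapdh*, the first oxidative step and a common reference gene, measured 125, 132, 170 and 168 CPM in YFP- against 31.6, 148, 182 and 199 CPM in YFP+ libraries (edgeR log2 fold change -0.09 ± 0.49, adjusted p = 0.959). Without library 21 *Gapdh* had a log2 fold change of 0.24 (edgeR, adjusted p = 0.408). Of its windows, 25.1% occur in other genes, 223 of them, so its level is uncertain. *Pgam1*, phosphoglycerate mutase, measured 76.0, 72.7, 95.3 and 90.5 CPM in YFP- against 65.8, 72.0, 113 and 95.1 CPM in YFP+ libraries. Library 21 was at 78.8% of the YFP- mean. Its log2 fold change was 0.05 ± 0.25 (edgeR, adjusted p = 0.953). Of its windows, 36.2% occur in other genes, and counts of the copy *Pgam1-ps2* were 36.1 to 38.4% of those of *Pgam1*, so its level is uncertain too. *Bpgm*, which makes the oxygen-affinity regulator 2,3-bisphosphoglycerate in erythroid cells, measured 26.6 to 44.7 CPM in YFP- against 0.0948, 35.7, 35.9 and 26.8 CPM in YFP+ libraries. Library 48, where the erythroid markers were highest, had the highest *Bpgm* level of the YFP+ libraries, within the range of the YFP- ones, and the part of erythroid cells in it was not tested.

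*Pkm*, pyruvate kinase, makes pyruvate and the last ATP of the pathway. It measured 878, 731, 984 and 934 CPM in YFP- against 46.2, 961, 1093 and 1269 CPM in YFP+ libraries. Of the YFP+ libraries, 48 and 53 lay above every YFP- library and 21 far below. Its log2 difference came to -0.07 ± 0.75 (edgeR, adjusted p = 0.979) and 0.32 ± 0.13 without library 21 (adjusted p = 0.187). Of its windows, 25.8% occur in other genes, which leaves its level uncertain, and the gene-level counts do not separate its M1 and M2 splice forms.

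Lactate leaves the cell through monocarboxylate transporters. *Slc16a1*, the gene of MCT1, measured 36.3, 38.0, 47.5 and 39.8 CPM in YFP- against 41.5, 39.3, 75.4 and 87.6 CPM in YFP+ libraries. The YFP+ libraries 48 and 53 lay above every YFP- library, and 21 and 46 within their range. The fitted difference was 0.59 ± 0.34 (edgeR, adjusted p = 0.490) and 0.73 without library 21 (adjusted p = 0.144). *Slc16a3*, the gene of the lactate exporter MCT4, was lower, at 3.39 to 8.94 CPM in YFP- libraries and 0, 1.09, 6.21 and 13.5 CPM in the YFP+ libraries 21, 46, 48 and 53. Per kilobase *Slc16a1* made up 84.2 to 92.8% of both in YFP- and 88.6 to 100% in YFP+ libraries.

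At the entry to the mitochondria, *Pdk1*, the kinase gene with the highest level per kilobase, measured 223, 159, 185 and 202 CPM in YFP- against 117, 159, 179 and 265 CPM in YFP+ libraries (edgeR log2 fold change -0.09 ± 0.27, adjusted p = 0.910). *Pdk2* and *Pdk3* were at 0 and 0.142 CPM in the YFP+ library 21, against 16.1 to 35.6 CPM and 38.3 to 53.7 CPM in YFP- libraries. *Pdhb*, the β subunit of the E1 enzyme of the complex, measured 197, 147, 163 and 182 CPM in YFP- against 208, 167, 179 and 162 CPM in YFP+ libraries, with library 21 the highest of all (edgeR log2 fold change 0.05 ± 0.18, adjusted p = 0.926). Its partner *Pdha1*, the X-linked α subunit, was at 122 to 156 CPM in YFP- libraries and 62.4, 147, 162 and 190 CPM in YFP+ libraries.

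The transcription factors went apart in library 21. *Myc*, which drives glycolytic genes in dividing lymphocytes, measured 259, 196, 218 and 211 CPM in YFP- against 2.04, 261, 216 and 306 CPM in YFP+ libraries (edgeR log2 fold change -0.17 ± 0.98, adjusted p = 0.958). *Hif1a*, the oxygen-regulated subunit of HIF-1, measured 44.9, 61.2, 48.5 and 46.2 CPM in YFP- against 227, 55.0, 38.2 and 25.4 CPM in YFP+ libraries (edgeR log2 fold change 0.78 ± 0.66, adjusted p = 0.651). Without library 21 the log2 fold changes were 0.23 for *Myc* (adjusted p = 0.378) and -0.35 for *Hif1a* (adjusted p = 0.478). The exons of *Hif1a* have 0% free of the spans of other annotated genes, but 91.9% free of the exons of these genes.

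**Figure D3:**
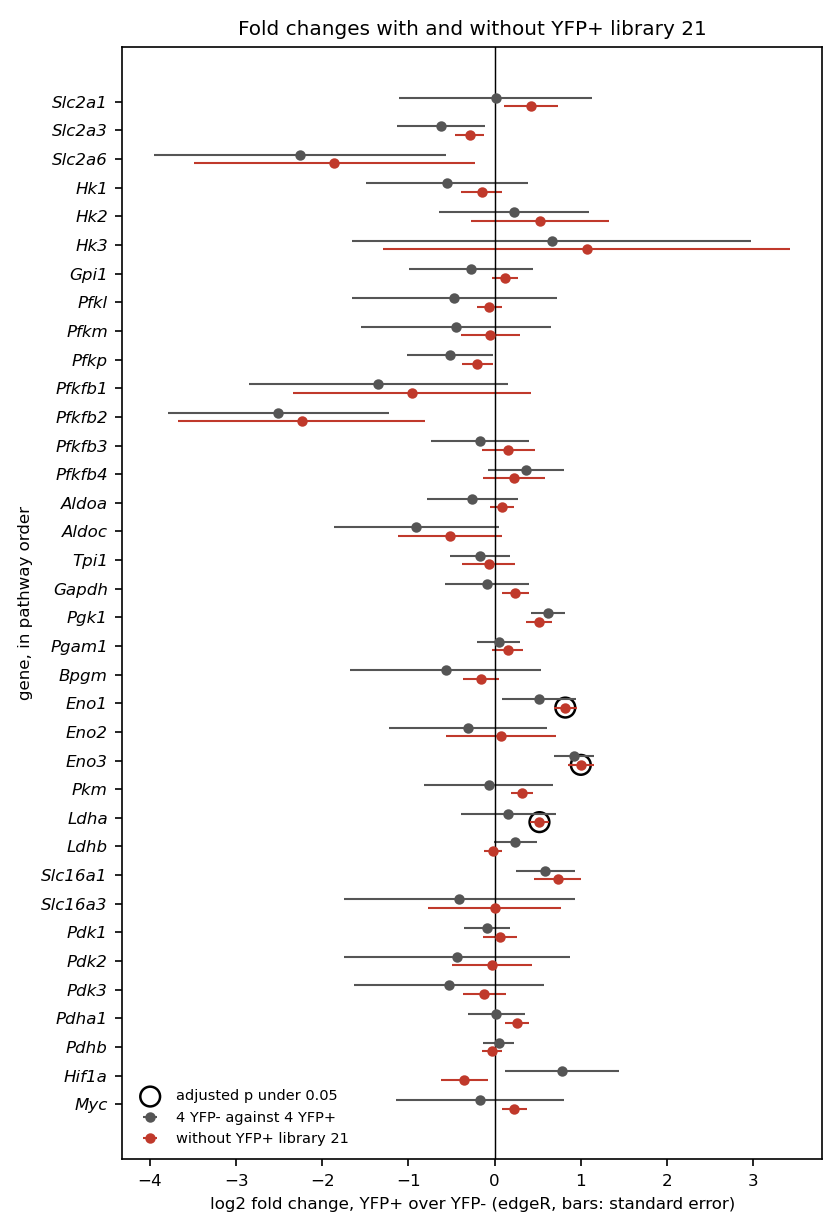
Log2 fold change of YFP+ over YFP- cells for 36 genes from edgeR, with bars of 1 standard error, for 4 against 4 libraries (grey) and without the YFP+ library 21 (red); circles mark an adjusted p under 0.05. Circles stand at *Eno1* (0.82), *Eno3* (1.0) and *Ldha* (0.52) without library 21 and at no gene with it.

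The plot of fold changes shows that leaving out library 21 narrowed the standard error of most members, that of *Eno1* from 0.43 to 0.13 and that of *Pkm* from 0.75 to 0.13. The summed level of the 20 enzyme genes from hexokinase to lactate dehydrogenase was 4407, 3929, 4894 and 4889 CPM in the YFP- libraries 21, 46, 48 and 53 against 1442, 5602, 6025 and 6991 CPM in YFP+ cells. The YFP+ libraries other than 21 lay above every YFP- library, with a mean 1.37 times that of YFP- cells. Without *Eno1* the ratio was 1.2 and the separation was lost, with 3512 CPM in the YFP+ library 46 against 3525 CPM in the YFP- library 48. With library totals in place of TMM-scaled sizes, the ratio for all 20 genes was 1.21, and the YFP+ libraries other than 21 still lay above every YFP- library. These sums are descriptions with no test. As a share of the sum per kilobase, *Eno1* made up 23.4, 21.3, 21.0 and 22.8% in YFP- libraries and 28.3, 27.3 and 31.1% in the YFP+ libraries 46, 48 and 53, with 20.4% in library 21. *Aldoa* made up 13.6 to 14.5% in YFP- libraries and 4.76, 10, 12.8 and 10.1% in the YFP+ libraries.

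**Figure D4:**
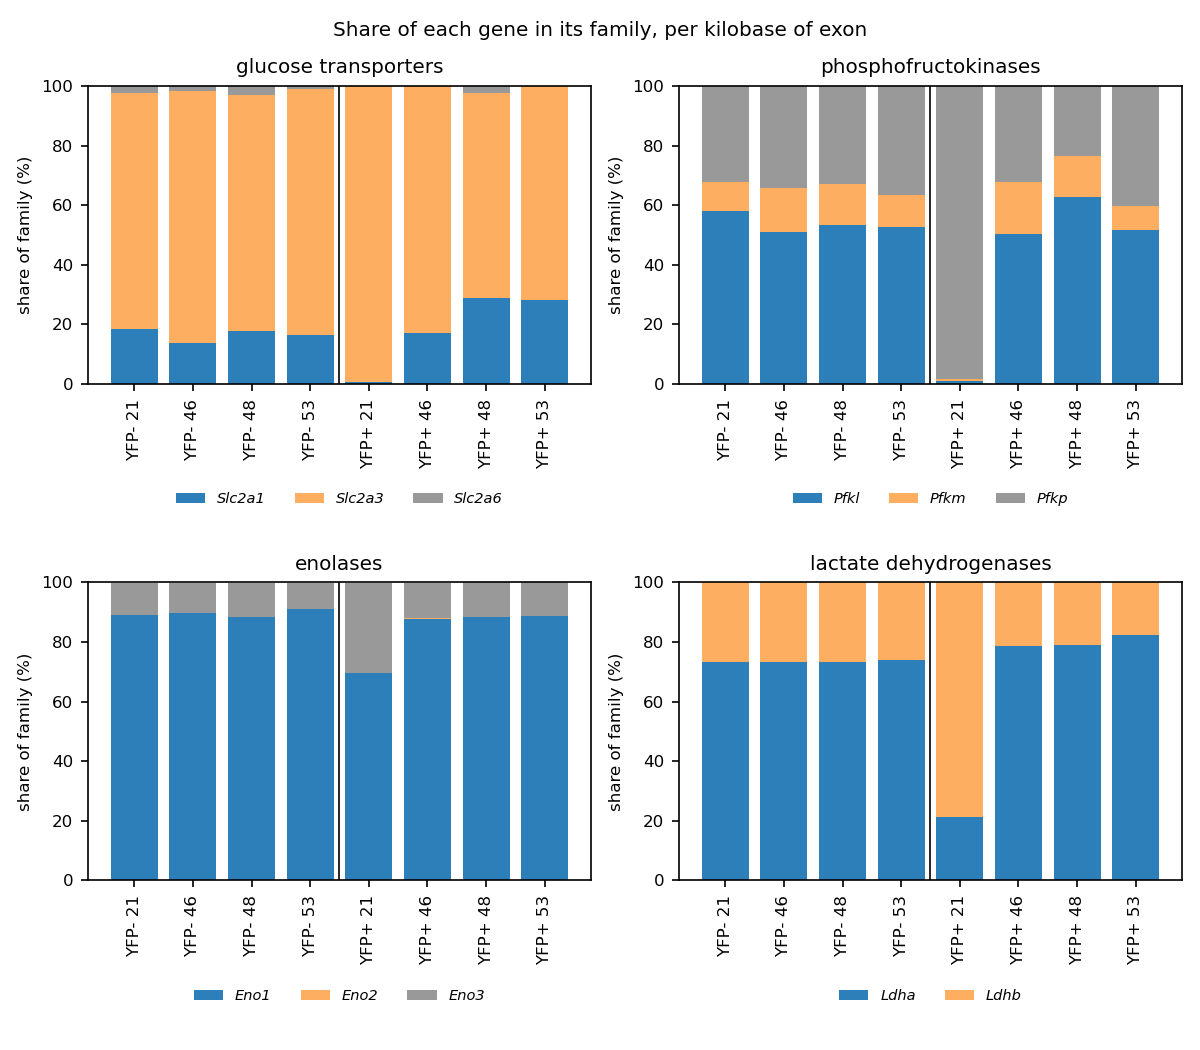
Share in percent of each gene in the summed counts per kilobase of exon of its family, for 4 families in 8 libraries, with a line between YFP- and YFP+ libraries. *Ldha* made up 73.2 to 74.0% of the lactate dehydrogenase genes in YFP- libraries and 78.8 to 82.3% in the YFP+ libraries 46, 48 and 53, and library 21 differs in all 4 families.

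Within library 21 the members went to opposite ends. Among the 28 members with at least 10 CPM in YFP- cells, the median log2 of (CPM + 1) over the YFP- mean was -2.36, with a range of -6.69 for *Pfkl* to 2.15 for *Hif1a*, and the median over all 8743 such genes was -0.42. In the YFP+ libraries 46, 48 and 53 the members' medians were -0.04, 0.29 and 0.18. Of all 36 members, 9 were at or above the lowest YFP- value in library 21, *Hk2*, *Hk3*, *Pfkfb4*, *Pgk1*, *Eno3*, *Ldhb*, *Slc16a1*, *Pdhb* and *Hif1a*. *Hk3* had 1 count there, 2.78% of the YFP- mean, and is on this list only because the YFP- library 53 is at 0. *Hk2* had 22 counts, 31.5% of the YFP- mean. Among the 28 members, those more than 10-fold under the YFP- mean were *Slc2a1*, *Hk1*, *Gpi1*, *Pfkl*, *Pfkm*, *Bpgm*, *Pkm*, *Pdk2*, *Pdk3* and *Myc*. Across these 28 genes the ratio in library 21 had a Spearman's rho of -0.38 with the GC content of the longest transcript and -0.15 with its length, and across 8742 genes these were -0.32 and -0.04. In the YFP+ libraries 46, 48 and 53 the rho with GC content was 0.08, 0.29 and 0.01 across the members and -0.17, -0.02 and 0.07 across all such genes. The rho with length was -0.41, -0.52 and 0.01 across the members there, beside -0.07, -0.30 and -0.27 across all such genes. Genes of 1 library are not independent replicates, and the part of GC content and length in these values was not tested.

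**Figure D5:**
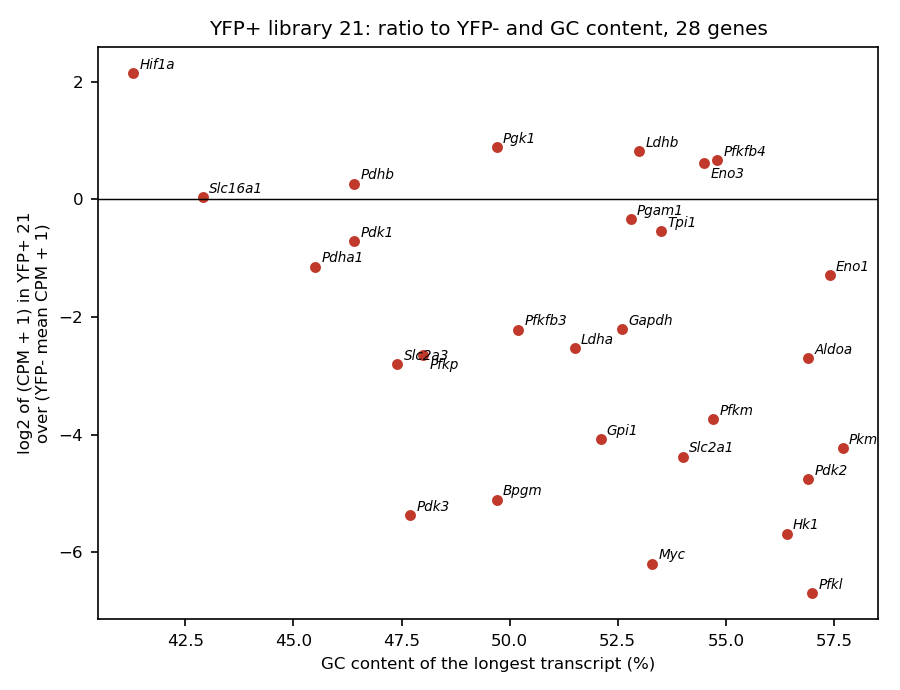
Log2 of (CPM + 1) in the YFP+ library 21 over the mean of the YFP- libraries + 1, against the GC content in percent of the longest transcript, for 28 genes with at least 10 CPM in YFP- cells. *Hif1a*, at 41.3% GC, lies highest at 2.15 and *Pfkl*, at 57.0% GC, lowest at -6.69, while *Eno3*, at 54.5% GC, lies at 0.62.

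Genes around the pathway were read in the same test. Of 134 genes on 7 further lists, 108 were tested, and 0 passed in either direction in edgeR with all 8 libraries, with 8 at an unadjusted p under 0.05. DESeq2 called 1 higher, *Idh1*, and 2 lower, *H6pd* and *Rps6kb1*, where it called 3.57% of all genes higher and 4.04% lower. Without the YFP+ library 21, edgeR called 3 of 113 higher and 1 lower, against 2.68% and 3.97% of all genes, so these counts were not above the background. The pentose phosphate pathway had 7 genes tested, and its smallest p belonged to *H6pd*, the hexose-6-phosphate dehydrogenase of the endoplasmic reticulum (log2 fold change -2.91, adjusted p = 0.309 from edgeR and 0.0228 from DESeq2), and to *Taldo1*, transaldolase (0.35, adjusted p = 0.690). Among 9 genes of pyruvate entry, *Pdp2*, a phosphatase that switches the PDH complex on, had 0.83 (adjusted p = 0.407) and *Dld*, the E3 subunit, 0.70 (adjusted p = 0.469). The YFP+ library 21 was the highest for both. Without it edgeR gave 0.43 for *Pdp2* (adjusted p = 0.211) and 0.18 for *Dld* (adjusted p = 0.404). The malic enzyme gene *Me2* rose by 0.51 without library 21 (adjusted p = 0.0373 from edgeR).

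Among 19 genes of the TCA cycle list, *Idh1*, the cytosolic isocitrate dehydrogenase that makes NADPH, measured 16.7, 14.5, 16.8 and 10.5 CPM in YFP- against 145, 37.7, 37.9 and 34.1 CPM in YFP+ libraries. All YFP+ libraries lay above all YFP- libraries. Its log2 fold change was 2.12 ± 0.56 (edgeR, adjusted p = 0.178, and 0.00658 from DESeq2), and it rose by 1.32 without library 21 (adjusted p = 0.0197). *Suclg1*, a subunit of succinate-CoA ligase, had 0.50 (adjusted p = 0.396). On the list of other hexose and glycogen genes, with 21 tested, *Pygm*, muscle glycogen phosphorylase, had -1.93 (adjusted p = 0.451) and *Slc2a9*, a urate transporter of the GLUT family, -1.20 (adjusted p = 0.462).

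Of 18 genes of the HIF axis, the mitophagy receptor gene *Bnip3l* measured 299, 252, 290 and 341 CPM in YFP- against 1822, 444, 358 and 482 CPM in YFP+ libraries, again wholly higher in YFP+ cells (edgeR log2 fold change 1.39 ± 0.52, adjusted p = 0.346), and *Higd1a*, a hypoxia-induced mitochondrial gene, had 0.89 (adjusted p = 0.477). The YFP+ library 21 was by far the highest for both. Without it edgeR gave 0.53 for *Bnip3l* (adjusted p = 0.0683) and 0.16 for *Higd1a* (adjusted p = 0.582). Of 16 genes of the Myc network, *Mlxip*, a glucose-sensing partner of Mlx, had -0.69 (adjusted p = 0.369) and *Npm1*, nucleophosmin, 0.37 (adjusted p = 0.382), and *Mxd1*, a Max partner that opposes Myc, rose by 0.97 without library 21 (adjusted p = 0.0178 from edgeR). Of 18 signalling genes, *Rps6kb1*, the S6 kinase downstream of mTORC1, had -0.54 (adjusted p = 0.306 from edgeR and 0.0146 from DESeq2) and *Arrdc4*, an arrestin that lowers glucose uptake, -2.84 (adjusted p = 0.396). *Arrdc4* measured 12.9, 17.2, 20.4 and 17.1 CPM in YFP- against 0, 5.94, 2.14 and 1.35 CPM in YFP+ libraries, and it fell by 2.43 without library 21 (adjusted p = 0.0471 from edgeR). Its relative *Txnip* is listed at 0 in all 8 libraries, as are *G6pdx* of the pentose phosphate list and *Foxp3*. Such a 0 does not by itself show that the RNA was absent. *Me2*, *Idh1*, *Mxd1*, *Arrdc4*, *Txnip* and *G6pdx* were named after their values were seen where the rule of smallest p did not name them.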

How the data were processed

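Bulk RNA of sorted CD4+ CD25+ cells was measured in 4 YFP- and 4 YFP+ libraries, grouped by their titles. The values are raw counts as the authors deposited them, 1 whole number per library and Ensembl identifier. Per the labels, Trim Galore trimmed the reads and STAR aligned them to mm10. The counting tool and its strand setting, and all versions, are not given in the sources used. Reads of overlapping or near-identical genes may therefore be shared. No model is stated for these libraries.

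The whole table was fitted with edgeR 4.0.16 (R 4.3.3) by glmQLFit and glmQLFTest with condition as the single term, after filterByExpr (at least 10 counts, total at least 15) and TMM scaling. Benjamini-Hochberg adjustment ran over every gene tested, with 0.05 as threshold. Standard errors were taken as the absolute fold change in log2 divided by the root of F. Permutation tests were exact and two-sided, on log2(CPM + 1). The alternatives used RLE or upper-quartile factors, robust dispersion, DESeq2 1.42.0, no filter, a filter of 5 CPM in 4 libraries, the library number as block, and subsets without each library or without the YFP+ libraries 21 and 48. Exon lengths and spans came from GENCODE M21 (GRCm38), where 99.5% of the 42748 identifiers were found. Steps were tested on simulated data.

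The members, lists and alternatives were chosen with earlier results of these data known. Given in full are members past the threshold with or without the YFP+ library 21, members of at least 5 CPM whose libraries do not overlap, the gene with the highest level per kilobase at each step, *Hif1a* and *Myc*. Of the other lists, genes past the threshold or the 2 with the smallest p are named, and further genes were picked after their values were seen.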

Additional observations from a re-analysis of the deposited data

Results flagged for a closer look

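In groups of 4 libraries, a library was marked where its gap to the nearest other library, divided by the range of the group on log2(CPM + 1), was above Dixon's critical value. Of 74 groups examined 14 were marked, where chance marks about 1 in 20 of independent groups. These groups share the same libraries, and 10 of the marks are of the YFP+ library 21, so the count cannot be read against that rate. The YFP+ library 21 was the lowest of its group, with the ratio in parentheses, for *Hk1* (0.830), *Gpi1* (0.927), *Pfkl* (0.928), *Aldoa* (0.845), *Gapdh* (0.840), *Bpgm* (0.920), *Pkm* (0.916), *Ldha* (0.894) and *Myc* (0.925). It was also lowest for the summed level of the 20 enzyme genes, with a ratio of 0.860 and log2 CPM of 10.49 against 12.45 to 12.77 in the other YFP+ libraries. The YFP+ library 48 was the highest of its group for *Slc2a6* (0.980), *Hk3* (0.981) and *Pfkfb2* (0.908), all of them low in the other 3 YFP+ libraries. Among YFP- libraries, 46 was lowest for *Slc2a1*, with a ratio of 0.853 and a log2(CPM + 1) of 4.12 against 4.57 to 4.65. The marked genes of library 21 span the pathway from hexokinase to lactate dehydrogenase, and *Pgk1*, *Eno3*, *Ldhb* and *Hif1a* were not among them.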

How the results depend on the processing

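With all 8 libraries 0 members passed in either direction under RLE or upper-quartile factors, robust dispersion, no filter or the stricter filter, under which 5 members were not tested. DESeq2 called 1 member higher. It called 1 gene of the other lists higher and 2 lower, against 0 and 0 in edgeR. Leaving out 1 library at a time gave 0 to 3 members higher, the 3 being those without the YFP+ library 21, and 0 to 1 lower, *Slc2a6* without the YFP+ library 48, and 0 to 3 genes of the other lists higher and 0 to 1 lower. Without the YFP+ libraries 21 and 48 the counts were 3 members higher and 2 lower, and 4 genes of the other lists higher and 0 lower. The number of members wholly higher in YFP+ cells was 2 to 4 when 1 library was left out, 5 without 21 and 48 and 1 with library totals, a setting chosen after seeing the data. The number wholly lower was 0 to 4, 4 and 1 in these settings. Without the YFP+ library 21, 12.5% of all genes lay wholly higher and 13.7% wholly lower. For the other subsets and for library totals no such share was computed, so these counts are not a result about the members. Over all genes, edgeR called 5 higher and 126 lower, DESeq2 514 and 581, edgeR without a filter 0 and 10, with the stricter filter 0 and 9, without the YFP+ library 21 424 and 628, without the YFP+ library 48 7 and 229, and without the YFP+ libraries 21 and 48 236 and 704. It called 0 in either direction without any 1 of the YFP- libraries or of the YFP+ libraries 46 and 53, with 1130 to 2326 genes at an unadjusted p under 0.05.

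Without a filter on low counts, the log2 fold changes of the following members changed sign: *Slc2a1* -0.02, *Pgam1* -0.02, *Pdha1* -0.03 and *Pdhb* -0.04. Without the YFP+ libraries 21 and 48, the log2 fold changes of the following members changed sign: *Hk1* 0.05, *Hk2* -0.17, *Hk3* -9.69, *Gpi1* 0.01, *Pfkfb3* 0.37, *Pfkfb4* -0.11, *Gapdh* 0.22, *Pgam1* -0.01, *Eno2* 0.49, *Pkm* 0.33, *Slc16a3* 0.07, *Pdk1* 0.13, *Pdhb* -0.08, *Hif1a* -0.33 and *Myc* 0.35. The fitted values of *Hk3* rest on libraries at 0 and are not bounds. When 1 library was left out, the members whose fold change changed sign ranged as follows: *Slc2a1* -0.54 to 0.42, *Hk2* -0.50 to 0.77, *Hk3* -7.04 to 1.71, *Gpi1* -0.52 to 0.12, *Pfkfb3* -0.69 to 0.16, *Aldoa* -0.50 to 0.09, *Gapdh* -0.31 to 0.24, *Pgam1* -0.10 to 0.15, *Eno2* -0.86 to 0.07, *Pkm* -0.34 to 0.32, *Ldha* -0.06 to 0.52, *Ldhb* -0.02 to 0.34, *Pdk1* -0.35 to 0.06, *Pdha1* -0.17 to 0.26, *Pdhb* -0.03 to 0.12, *Hif1a* -0.35 to 1.06 and *Myc* -0.47 to 0.23. None of these members passed the test in a setting where its sign was reversed, and the causes were not tested.

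With the library number as a replicate block, 0 members and 0 of all genes passed, with 1440 genes at an unadjusted p under 0.05, and the log2 fold changes that changed sign were *Slc2a1* -0.61, *Hk3* -3.48, *Ldha* -0.15 and *Pdha1* -0.08. Same-numbered libraries deviated together with correlations of 0.049, 0.068, 0.14 and 0.095 for the numbers 21, 46, 48 and 53. The YFP+ libraries 46, 48 and 53 each correlated best with the YFP- library of their own number, and the YFP+ library 21 with the YFP- library 46. These correlations were all low, so the numbers were not taken as pairs. Whether they pair the libraries is not known.

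Depth limits members near the floor of 0.0374 to 0.142 CPM. Counts of the YFP+ library 21 rest on the fewest reads and genes.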
